A study of Mus musculus with 22 samples.

Results

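Pyy, Gip, Grp, Iapp, Tff3, Reg3b, Reg3g, Psca, Pgc and Lypd2 encode hormones, antimicrobial lectins and secreted or surface proteins that are best known from gut, stomach and pancreatic islets. Their transcripts were followed here in mouse thymus, with liver and liver CD8+ T cells beside it. The genes were chosen by name, and all 10 were found by symbol among the 24786 genes of each deposited table. The list was drawn up with the thymus values by Aire genotype in view. The comparisons of TG Aire+/- thymus with either group that lacks Aire are therefore given as descriptions with no test.

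AIRE is a nuclear protein of medullary thymic epithelial cells that lets these cells transcribe genes otherwise restricted to peripheral organs, so that developing T cells meet self proteins in the thymus. Peptide hormones and gut secretory proteins are among the products found there. Some medullary epithelial cells also take on programmes of other tissues, such as endocrine or mucous cells, and are called mimetic cells.

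For thymus there were 3 libraries of Aire-/- mice, 3 of TG Aire+/- mice and 3 of TG Aire-/- mice. Liver, all of batch 2, gave 2 libraries per group, namely Aire+/+, TG Aire-/-, and TG Aire-/- with CD8+ T cells depleted. CD8+ T cells sorted from liver gave 1 library for each of the 3 genotypes measured in thymus, from 500000 cells per the labels. All mice are labelled C57BL/6 and 2 to 4 weeks old, and all but the depleted mice are labelled as untreated. TG marks the dnTGFβRII transgene of the series title, which encodes a TGF-β receptor that blocks signalling. The labels do not give its promoter, and the mouse line of that name is known for driving it in T cells. No thymus of Aire+/+ mice or of mice with an Aire allele and no transgene was analysed here. The transgene and the Aire allele therefore cannot be told apart in TG Aire+/- against Aire-/- thymus, while TG Aire-/- and TG Aire+/- share the transgene. The labels do not say that replicates are separate animals, so the p-values reflect sample-to-sample spread, which may be partly technical.

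The genes lie on 5 chromosomes of GRCm38 (GENCODE vM21). Pyy, peptide YY of ileal and colonic L cells, is at chr11:102106676-102107832, and Gip, the incretin of duodenal K cells, at chr11:96024545-96030831. Grp, gastrin-releasing peptide, is at chr18:65872820-65886596, and Iapp, islet amyloid polypeptide, which is secreted with insulin, at chr6:142298423-142303961. Tff3, the trefoil factor of goblet cells, is at chr17:31125306-31129646, and Pgc, the progastricsin (pepsinogen C) of the stomach, at chr17:47726842-47734482. Reg3b and Reg3g, C-type lectins of intestinal epithelium that act on bacteria, are 92.8 kb apart at chr6:78370657-78373466 and chr6:78466269-78468872. Psca, prostate stem cell antigen of gastric and bladder epithelium, and Lypd2, another protein of the Ly6/uPAR family, are 15.2 kb apart at chr15:74714839-74717069 and chr15:74732247-74734329.

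Gene spans ran from 1157 to 13777 bases with a median of 3575.5, against a median of 18193 over 20453 protein-coding genes in the tables. Iapp overlaps Slco1a5 on the opposite strand, and Grp overlaps an annotated antisense transcript. Whether counting used strand is not given in the sources used here, so the values of Iapp and Grp may hold reads of those partners.

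The promoters of 6 of the 10 genes are shown as RefSeq sequence on GRCm38.p6, because these genes stood high together in TG Aire+/- thymus. Tff3, Psca and Lypd2 had no entry. Grp was left out by choice before the counts below were made, so they do not cover it. Each line gives the 100 bases before the annotated start, written 5′ to 3′ on the strand of the gene, with the motif TATAA in capitals.
Pyy: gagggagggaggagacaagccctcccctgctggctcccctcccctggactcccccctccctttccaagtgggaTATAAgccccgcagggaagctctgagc
Gip: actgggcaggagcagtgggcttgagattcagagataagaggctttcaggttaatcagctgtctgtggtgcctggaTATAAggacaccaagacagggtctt
Iapp: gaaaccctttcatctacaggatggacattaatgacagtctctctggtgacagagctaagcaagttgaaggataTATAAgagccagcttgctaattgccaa
Reg3b: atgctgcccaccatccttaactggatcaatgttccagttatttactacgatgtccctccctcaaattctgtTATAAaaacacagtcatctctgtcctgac
Reg3g: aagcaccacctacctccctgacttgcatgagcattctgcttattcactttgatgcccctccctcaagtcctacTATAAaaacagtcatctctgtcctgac
Pgc: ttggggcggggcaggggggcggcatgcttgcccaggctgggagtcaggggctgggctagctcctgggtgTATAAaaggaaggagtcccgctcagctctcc
These windows are chr11:102107833-102107932 on the minus strand for Pyy, chr11:96024445-96024544 on the plus strand for Gip and chr6:142298325-142298424 on the plus strand for Iapp. They are chr6:78370785-78370884 on the plus strand for Reg3b, chr6:78468875-78468974 on the minus strand for Reg3g and chr17:47726742-47726841 on the plus strand for Pgc. In the promoters shown TATAA, the core of the TATA box, began 25 to 31 bases before the start. It thus stood in the last 50 bases before the start in 6 of the 6 shown, with Grp left out. The same was true of 5.33% of 27025 genes in the RefSeq table. On either strand of the whole 300-base window of the table, 25.5% of genes held it. The motif was picked after these sequences had been looked at, and a match is a description and not a site. Reg3b and Reg3g had the same base in 76 of 103 aligned columns (73.8%), against 43.4% to 54.1% in the other 14 pairs. The 100-base windows held 0 to 3 CpG dinucleotides, with a median of 3 over all genes.

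Inferred from the steps between low values, thymus libraries had 22400000 to 29900000 reads, liver libraries 20300000 to 23100000 and CD8+ T cell libraries 20900000 to 22000000. The number of genes at 1 RPKM (reads scaled to gene length and library size) or more ran from 9761 to 12475. Aire, measured over the whole gene, stood at 27.2, 29.5 and 16.0 RPKM in Aire-/- thymus, at 13.6, 10.9 and 10.2 in TG Aire+/- and at 20.2, 6.50 and 7.63 in TG Aire-/-, so the value of the whole gene does not check the genotype. Tgfbr2 ranged from 11.1 to 30.4 RPKM over the 9 thymus libraries, and such a value does not tell the transgene from the native gene. The first replicate of TG Aire-/- thymus stood apart. Its Rag1, which rearranges receptor genes in thymocytes, was 0.571 RPKM against 158 to 614 in the other 8 libraries. The 16 double-positive thymocyte genes summed to 530 RPKM there against 3270 to 4390, and 10 cortical epithelium genes to 125 against 856 to 1020. The 11 B cell genes summed to 300 RPKM there against 28.5 to 74.5, and 8 adipocyte genes to 1090 against 72.1 to 138. Results that rest on this library are given with and without it.

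In TG Aire+/- thymus each of the 10 genes was detected in every library and stood above every library of both groups that lack Aire, in RPKM as deposited. With median-of-ratios scaling 9 of 10 did, and Iapp did not, since TG Aire-/- replicate 1 overlapped. The filter of 0.1 RPKM in at least 3 thymus libraries passed 16748 genes. In RPKM as deposited, 1.46% of these stood above both groups in the same way. The share was 6.57% against Aire-/- alone and 8.47% against TG Aire-/- alone. No such share was computed with median-of-ratios scaling. The 10 genes were selected on this contrast, so nothing is read from 10 of 10. All 10 passed the filter, and Gip, Pgc and Lypd2 did so only through the TG Aire+/- libraries. Group levels spanned 0.707 RPKM for Gip to 23.9 for Reg3g in TG Aire+/-, which is the 39.4th to the 86.9th percentile of 21083 genes with any read in thymus. In bulk tissue, fewer cells that express a gene and less of its RNA per cell cannot be told apart.

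**Figure D1:**
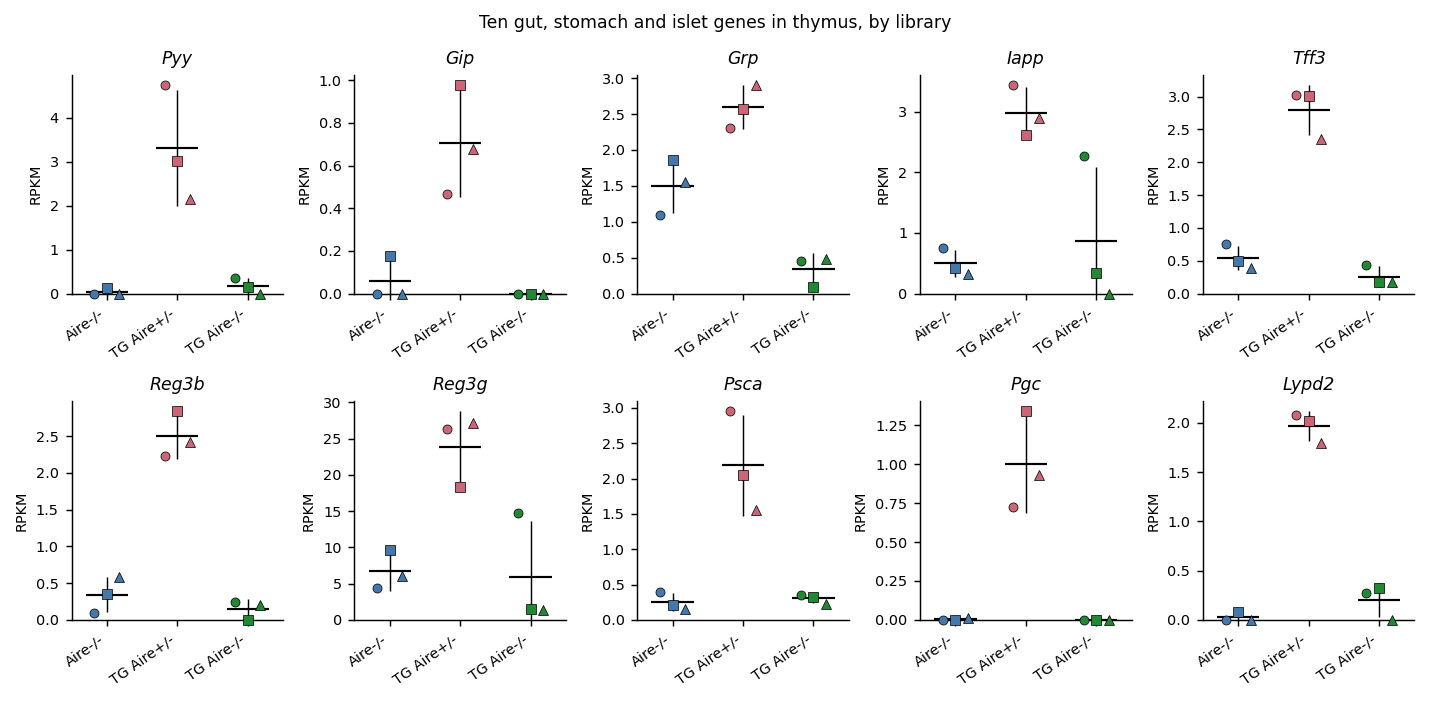
RPKM (linear axis from 0, a separate scale per panel) of the 10 genes in the 9 thymus libraries by group, with circles, squares and triangles for replicates 1, 2 and 3. Horizontal lines are group means and vertical lines 1 SD (n = 3, drawn down to 0 at most). In every panel the 3 TG Aire+/- points lie above the other 6, with the smallest gaps in Reg3g, Iapp and Grp.

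Pyy stood at 4.75, 3.02 and 2.15 RPKM in TG Aire+/- thymus (3.31 ± 1.32, mean ± SD, n = 3). In Aire-/- it was 0, 0.135 and 0 RPKM, and in TG Aire-/- 0.361, 0.143 and 0. For Pyy 3 reads correspond to as much as 0.212 RPKM in thymus, so every library without Aire but TG Aire-/- replicate 1 was under that floor. Floors of this kind cover counting error only. Pyy varied most among the 10 genes within TG Aire+/-, with a coefficient of variation of 40.0%.

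Gip was the lowest of the hormones, at 0.466, 0.978 and 0.679 RPKM in TG Aire+/- (0.707 ± 0.257, n = 3). It was 0, 0.175 and 0 in Aire-/- and 0 in all 3 TG Aire-/- libraries, all under its floor of 0.195 RPKM. Its level is thus known only in TG Aire+/- thymus.

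Unlike Pyy and Gip, Grp was well above its floor of 0.0907 RPKM in Aire-/- thymus. It stood at 2.30, 2.57 and 2.91 RPKM in TG Aire+/- (2.59 ± 0.306, n = 3), at 1.10, 1.86 and 1.55 in Aire-/- and at 0.454, 0.0908 and 0.487 in TG Aire-/-. The 3 groups did not overlap. The TG Aire+/- mean was 1.73 times that of Aire-/- and 7.53 times that of TG Aire-/-.

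Iapp stood at 3.44, 2.61 and 2.89 RPKM in TG Aire+/- (2.98 ± 0.423, n = 3) and at 0.749, 0.424 and 0.322 in Aire-/-, a ratio of means of 5.99. In TG Aire-/- it was 2.27, 0.343 and 0 RPKM. The high value belongs to the library that stood apart, and the lowest TG Aire+/- value was only 1.15 times as high.

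Tff3, which protects and repairs mucosal surfaces, stood at 3.03, 3.01 and 2.36 RPKM in TG Aire+/- (2.80 ± 0.380, n = 3). It was 0.749, 0.494 and 0.391 in Aire-/- and 0.437, 0.171 and 0.169 in TG Aire-/-. The TG Aire+/- mean was 5.14 times that of Aire-/-, and 2 of 3 TG Aire-/- values were under the floor of 0.272 RPKM.

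Pgc, a digestive zymogen of the stomach, stood at 0.724, 1.34 and 0.932 RPKM in TG Aire+/- (0.998 ± 0.312, n = 3). It was listed at 0, 0 and 0.0107 in Aire-/- and at 0 in all 3 TG Aire-/- libraries, against a floor of 0.0965 RPKM. As with Gip, no fold can be given.

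Reg3g was the most abundant of the 10 genes in each thymus group. Its values were 26.3, 18.3 and 27.1 RPKM in TG Aire+/- (23.9 ± 4.91, n = 3), 4.46, 9.63 and 6.00 in Aire-/- and 14.8, 1.48 and 1.35 in TG Aire-/-. The TG Aire+/- mean was 3.57 times that of Aire-/- and 4.08 times that of TG Aire-/-. As for Iapp, the highest TG Aire-/- value came from the library that stood apart.

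Reg3b, the neighbour of Reg3g whose promoter resembled it most among those shown, was expressed at a lower level than Reg3g in every thymus library. It stood at 2.23, 2.84 and 2.42 RPKM in TG Aire+/- (2.5 ± 0.311, n = 3), at 0.0987, 0.348 and 0.582 in Aire-/- and at 0.243, 0 and 0.206 in TG Aire-/-. The ratios of means were 7.29 and 16.7. The second is loose, since the TG Aire-/- mean of 0.15 RPKM was close to the floor of 0.117. Unlike Reg3g, Reg3b was not raised in TG Aire-/- replicate 1. The 2 lectins are related in sequence, and how the authors' counting split shared reads is not given in the sources used here.

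Psca stood at 2.96, 2.05 and 1.55 RPKM in TG Aire+/- (2.19 ± 0.713, n = 3). In Aire-/- it was 0.392, 0.212 and 0.157 and in TG Aire-/- 0.353, 0.330 and 0.228. The TG Aire+/- mean was 8.62 times that of Aire-/- and 7.20 times that of TG Aire-/-.

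Lypd2 was the most even of the 10 genes within TG Aire+/-, at 2.08, 2.02 and 1.79 RPKM (1.96 ± 0.156, n = 3, coefficient of variation 7.96%). It was 0, 0.077 and 0 in Aire-/-, all under its floor of 0.197 RPKM, and 0.272, 0.326 and 0 in TG Aire-/-. The TG Aire+/- mean was 9.86 times that of TG Aire-/-. This ratio is loose, since the TG Aire-/- mean of 0.199 RPKM was barely above the floor.

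No TG Aire+/- library carried all the high values. Replicate 1 was highest for Pyy, Iapp, Tff3, Psca and Lypd2, replicate 2 for Gip, Reg3b and Pgc, and replicate 3 for Grp and Reg3g. The median coefficient of variation of the 10 genes within TG Aire+/- was 17.4%, against 16.3% over 10002 genes whose means lay in the same range of 0.707 to 23.9 RPKM. On the log2(RPKM + 1) scale the median difference of the 10 genes between TG Aire+/- and the mean of both groups without Aire was 1.38. It was 1.83 with a pseudocount of 0.5 and 2.68 with 0.1, since a pseudocount of 1 is close to the levels of these genes.

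Genes of medullary epithelium differed between the groups too. From a list of 20 such genes 6 structural epithelial genes were picked, namely Epcam, Krt5, Krt14, Krt17, Cldn3 and Cldn4. The keratins Krt8 and Krt18 of the list were left out. The 6 summed to 238, 190 and 156 RPKM in Aire-/-, to 200, 193 and 188 in TG Aire+/- and to 142, 111 and 90.7 in TG Aire-/-. For this sum TG Aire+/- lay within the range of Aire-/-, and all 3 TG Aire-/- libraries lay below both groups. The whole list of 20, which also holds Krt8, Krt18, class II genes and Ccl21a, gave another order. It summed to 4590, 1450 and 1050 RPKM in TG Aire-/-, to 1990, 1820 and 1830 in TG Aire+/- and to 2620, 2000 and 1760 in Aire-/-, so TG Aire-/- replicate 1 was the highest of the 9 libraries. Divided by the sum of the 6 genes, 8 of the 10 genes had every TG Aire+/- value above all 6 others. Iapp and Reg3g did not, because TG Aire-/- replicate 1 overlapped. The share over all genes was not computed on this scale. Since the 10 genes were chosen on this contrast, nothing is read from the 8. Relative to the medullary sum Tff3 was 1.44% ± 0.161 in TG Aire+/-, 0.275% ± 0.0348 for Aire-/- and 0.216% ± 0.0804 in TG Aire-/- (n = 3 each). Grp was 1.34% ± 0.202, 0.811% ± 0.304 and 0.313% ± 0.228 in the same order, and on this scale the 2 groups without Aire overlapped for Grp. The part of the medullary sum in the other differences was not tested.

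**Figure D2:**
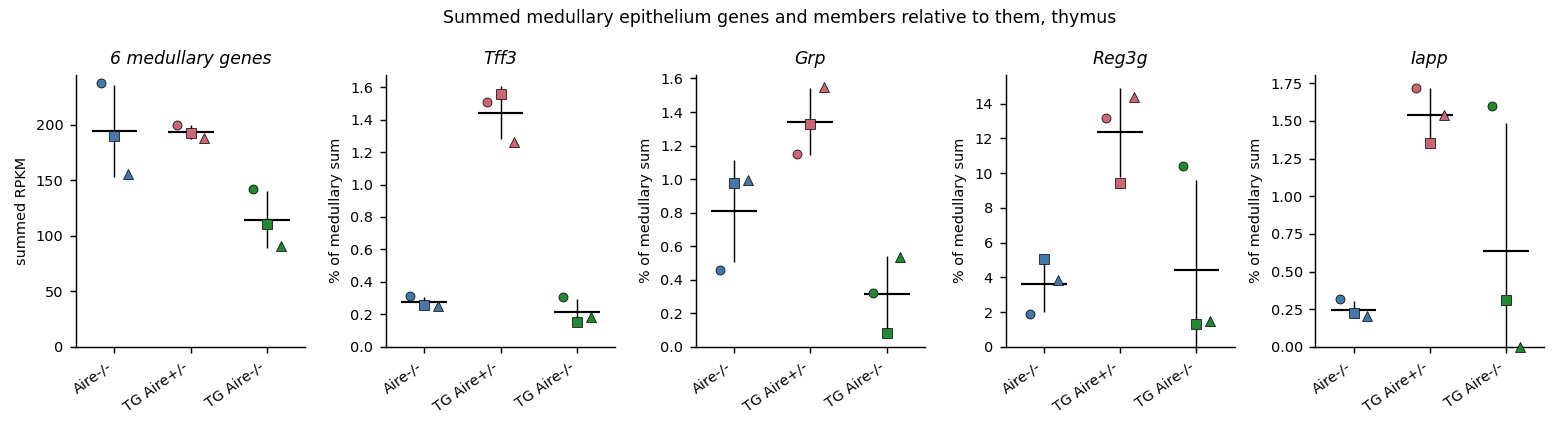
Summed RPKM of 6 medullary epithelium genes (left panel) and 4 of the genes as a percentage of that sum, by thymus group, with circles, squares and triangles for replicates 1, 2 and 3. Lines are means and 1 SD (n = 3, drawn down to 0 at most). Tff3 and Grp stay apart in TG Aire+/-, while Reg3g and Iapp in TG Aire-/- replicate 1 reach the TG Aire+/- points.

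TG Aire-/- against Aire-/- thymus asks how the transgene bears on these transcripts where Aire is lacking. The genes were not chosen on this contrast. They were chosen with lower values in both of its groups in view, so a lack of calls is not read as a lack of effect. None of the 10 genes was called (limma, adjusted p under 0.05), against 0.0119% of 16748 genes, 2 in all. At an unadjusted p under 0.05 there was 1 of the 10, Grp, and 1283 of all genes. Grp stood at 0.344 ± 0.220 RPKM in TG Aire-/- and 1.5 ± 0.384 in Aire-/- (n = 3 each), and all 3 TG Aire-/- libraries lay below all 3 Aire-/- libraries. Its log2 difference was −0.90 (SE 0.2014, limma adjusted p = 0.6291), and the adjusted p ranged from 0.06742 to 0.9985 over the alternatives. Such a separation was found for Grp alone among the 10, and for 6.36% of all genes. The sum of the 6 picked medullary genes was lower in TG Aire-/- as well, as given above.

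None of the other genes passed the threshold. Reg3g had a log2 difference of −0.72 (SE 0.6433, limma adjusted p = 0.7183), Tff3 of −0.30 (SE 0.1676, adjusted p = 0.6291) and Reg3b of −0.21 (SE 0.1719, adjusted p = 0.691). Iapp at 0.14 and Psca at 0.06 had estimates above 0, with limma adjusted p of 0.9085 and 0.9175. Gip and Pgc were under their floors in both groups, Lypd2 in all 3 Aire-/- libraries and Pyy in 5 of the 6 libraries. The estimates of these 4 genes are not read. Without TG Aire-/- replicate 1 the estimate of Reg3g was −1.62 (SE 0.2965, adjusted p = 0.1018), that of Grp −0.96 (adjusted p = 0.1627) and that of Iapp −0.36 (adjusted p = 0.4494), which turned its sign. None of the 10 was called in that fit, where 0.133% of 16526 genes were.

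Other genes of the same families were counted in 7 lists of 128 genes. The lists were drawn up by family with earlier results of these data known, so they are not independent of the values. Of the 128 genes 125 were in the table and 74 passed the filter. The lists cover other gut hormones and granule proteins, endocrine transcription factors, islet genes, trefoil and mucin genes, Reg lectins and Paneth cell peptides, the Ly6/uPAR family, and transcription factors of thymic mimetic cells. Between TG Aire-/- and TG Aire+/- thymus 2 of 74 fell and none rose, against 0.125% of all genes that fell. Their median log2 difference was −0.34 and 61 of 74 estimates were below 0, beside a median of −0.09 over all genes. Between TG Aire+/- and Aire-/- 1 of 74 rose and none fell, against 0.0537% of all genes, with a median of 0.16 beside 0 over all genes. None of the 74 was called between TG Aire-/- and Aire-/- (47 of 74 estimates were below 0). All these calls were lost when any of the other 8 thymus libraries (all but TG Aire-/- replicate 1) was left out, with a filter of 1 RPKM, with median-of-ratios scaling and with the replicate number as a block. The called genes, Reg1 and Defa21, passed the filter only through the TG Aire+/- libraries, where they were high, so nothing is read from their calls. Some others of the 74, Nts and Slurp1 among them, passed it in the same way. Nothing is therefore read from the medians and the counts of estimates in the contrasts with TG Aire+/- either.

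Reg1, a lectin gene between Reg3b and Reg3g on chromosome 6, was called in both comparisons. It stood at 1.48, 1.35 and 0.939 RPKM in TG Aire+/-, 0, 0.207 and 0 in Aire-/- and 0.131, 0 and 0 in TG Aire-/-. No difference or p-value is given for Reg1 or Defa21, since both passed the filter only through the TG Aire+/- libraries. Defa21, a Paneth cell defensin with close paralogs, was called lower in TG Aire-/- against TG Aire+/-. It was 0.424, 0.371 and 0.388 RPKM in TG Aire+/- and listed at 0 in the other 6 libraries. Genes at 0 in both other groups add no spread there, which can make p too small.

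Without TG Aire-/- replicate 1, a fit looked at after the values were seen, 10 of 73 genes fell in TG Aire-/- against TG Aire+/- (0.502% of all genes fell). They were the hormone gene Nts, the trefoil factors Tff1 and Tff2, the goblet cell gene Clca1, Reg1, Lyz1, Defa21, Ang4, Ly6g and Lypd8. Nts, Tff1, Tff2, Reg1 and Defa21 of these passed the filter only through the TG Aire+/- libraries, so nothing is read from their calls. Against Aire-/-, 4 of 73 rose in TG Aire+/- (0.127% of all genes rose), namely Nts, Reg1, Defa21 and Ly6g. Nts, neurotensin of ileal N cells, stood at 2.03, 1.57 and 1.52 RPKM in TG Aire+/-, at 0, 0.0322 and 0 in Aire-/- and at 2.14, 0.0341 and 0.0994 in TG Aire-/-. Its high TG Aire-/- value was in replicate 1, the library in which Reg3g and Iapp were also high. Tff1 likewise was 1.05 RPKM there and 0 in the other TG Aire-/- libraries, against 1.43, 1.35 and 0.617 in TG Aire+/-. The 3 genes that fell in TG Aire-/- against Aire-/- in this fit were Fcgbp (−2.60), Lyz1 (−1.47) and Lypd8 (−2.21), where 0.115% of all genes fell.

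Of 14 tested hormone and granule genes none was called with all libraries in any thymus contrast. Insl5, a hormone of colonic L cells, was the highest of that list. It stood at 19.6, 13.9 and 8.48 RPKM in TG Aire+/-, at 16.5, 3.41 and 5.83 in Aire-/- and at 0.0968, 14.5 and 17.1 in TG Aire-/-, so the groups overlapped. Ppy, pancreatic polypeptide, lies 5.36 kb from Pyy and stood at 0.666, 0.159 and 0.497 RPKM in TG Aire+/-. It was 0 in every Aire-/- library and 0.351, 0 and 0 in TG Aire-/-, so its groups overlapped where those of Pyy did not. Chga, chromogranin A of endocrine granules, was 4.86 RPKM in TG Aire+/- replicate 1 and 0.647 and 0.468 in replicates 2 and 3. That library also held 8.54 RPKM of Pth, parathyroid hormone, which was 0 in the other 8. Pyy, Iapp, Tff3, Psca and Lypd2 were highest in this library too, and every one of the 10 genes kept its separation when it was left out.

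Islet and endocrine regulator genes gave little. Ins2, insulin, was 1.09, 0.067 and 0.391 RPKM in TG Aire+/-, 0, 0.13 and 0 in Aire-/- and 0 in TG Aire-/-, and it overlapped Aire-/-. Mafa, a transcription factor of beta cells, was the highest islet gene, with 2.23 ± 0.497 RPKM in TG Aire+/-, 1.06 ± 1.2 in TG Aire-/- and 2.69 ± 1.8 in Aire-/- (n = 3 each). Of 11 endocrine transcription factors 4 passed the filter and none was called. Insm1, which is needed for endocrine differentiation, was 2.23, 3.28 and 5.25 RPKM in TG Aire+/-, 4.70, 0.766 and 0.673 in TG Aire-/- and 2.68, 9.41 and 6.26 in Aire-/-. Insm1 was thus not highest in the group where Pyy, Gip, Grp and Iapp were highest. Of 15 tested mimetic cell factors none was called, and Spib, a factor of microfold-like cells, was the most abundant.

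**Figure D3:**
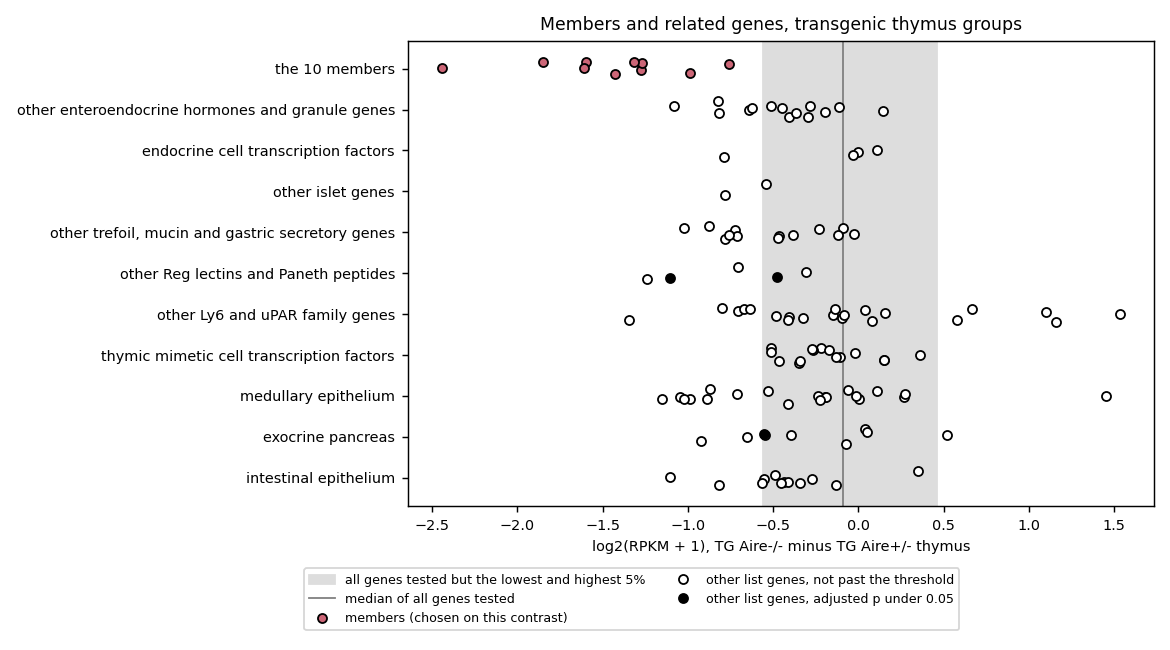
Log2(RPKM + 1) differences between TG Aire-/- and TG Aire+/- thymus for the 10 genes (red, selected on this contrast), for tested genes of 7 related lists and for 3 marker lists. Filled points had an adjusted p under 0.05 in limma, the grey line is the median of all 16748 genes (−0.09), and the grey band leaves out the lowest and the highest 5% of them. Most hormone, trefoil and lectin genes lie left of the line, and Reg1, Defa21 and the pancreatic gene Pla2g1b are the filled points. These filled genes, and some of the open ones such as Nts, passed the filter only through the TG Aire+/- libraries.

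Likeness to the 10 was scored over the 9 thymus libraries for 15166 genes, the 10 included. The measure was the Pearson r of log2(RPKM + 1) with the mean z-score of the 10. Highest among the other genes were Cxcl3 (0.987), Crabp1 (0.983), Reg1 (0.983), Ly6g (0.966) and Ptgds (0.965). They were followed by Pla2g1b (0.956), Sbp (0.954), Sbpl (0.95), Sprr2i (0.95) and the table's Mir7087 entry (0.942). These values are descriptions over libraries that share groups. Cxcl3, a neutrophil chemokine, averaged 0.623 RPKM in TG Aire+/-, 0.0698 in Aire-/- and 0.0705 in TG Aire-/-. Crabp1, which binds retinoic acid, averaged 1.0 RPKM in TG Aire+/-, was 0 in every Aire-/- library and averaged 0.0278 in TG Aire-/-. Ptgds, a prostaglandin D synthase, averaged 1.39, 0.0982 and 0.187 RPKM in the same order. The 10 genes' own r with their mean ran from 0.81 for Grp to 0.985 for Tff3, with each gene part of that mean.

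Neighbours of the 10 genes were looked at by distance alone. Within 100 kb lay 55 other genes, of which 40 passed the filter, and in 4 of these (10.0%) every TG Aire+/- value lay above all 6 others, beside 1.46% of all genes. The 4, named after their values were seen, were Reg1 near the Reg3 genes, Tff2 at 11.4 kb from Tff3, Slurp1 at 4.21 kb from Lypd2, and Slco1a5, which overlaps Iapp. Reg1, Slurp1 and Slco1a5 passed the filter only through the TG Aire+/- libraries, where they were high, so nothing is read from the 10.0%. Tff2, the trefoil factor of gastric mucous cells, stood at 1.48, 0.743 and 0.838 RPKM in TG Aire+/-, at 0.328, 0.0663 and 0.308 in Aire-/- and at 0.293, 0 and 0 in TG Aire-/-. Slurp1, a secreted Ly6 protein of skin, stood at 1.22, 0.367 and 0.428 RPKM in TG Aire+/-, 0 in every Aire-/- library and 0, 0 and 0.0734 in TG Aire-/-. Slco1a5 was at most 0.291 RPKM in any thymus library and shares its locus with Iapp.

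In liver only Tff3 and Psca of the 10 genes were expressed well above their floors, and both were higher in TG Aire-/- than in Aire+/+ mice. Tff3 was 10.9 and 9.13 RPKM in Aire+/+, 314 and 73.5 in TG Aire-/- and 31.2 and 52.7 in the CD8-depleted TG Aire-/- livers. Both TG Aire-/- values lay above the other 4, as they did for 52% of 15695 genes that passed the filter in liver. The log2 difference between TG Aire-/- and Aire+/+ was 3.80 (SE 0.6436, n = 2 per group, limma adjusted p = 0.008717). Limma called 32% of all genes in this contrast (27.7% higher), with a median of 0.43. Tff3 is the only 1 of the 10 read from this test, since Psca passed the filter only through the TG Aire-/- livers. Without either Aire+/+ replicate Tff3 was not called (adjusted p 0.0559 and 0.05922), at differences of 3.92 and 3.69.

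Psca was 0 RPKM in both Aire+/+ livers, 4.46 and 6.40 in TG Aire-/- and 0 in both CD8-depleted livers, where 3 reads correspond to at most 0.172 RPKM. Psca thus passed the filter only through the livers where it was high, so its difference is given as values with no test or fold. Between CD8-depleted and other TG Aire-/- livers limma called 32.7% of all genes (29.3% lower), with a median of −0.46. With median-of-ratios scaling 2462 genes were called higher and 1110 lower in TG Aire-/- against Aire+/+, in place of 4353 and 672, and the median was 0.14. Tff3 was then higher by 3.32 and still called (limma adjusted p = 0.0193).

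Tff3 in CD8-depleted livers averaged 41.9 ± 15.2 RPKM, against 194 ± 170 in TG Aire-/- and 10.0 ± 1.25 in Aire+/+ (n = 2 each). The log2 difference between depleted and other TG Aire-/- livers was −1.88 (SE 0.6436, limma adjusted p = 0.0628) and was not called. It was −0.84 without TG Aire-/- replicate 1 (limma adjusted p = 0.1353) and −2.92 without TG Aire-/- replicate 2 (adjusted p = 0.01317), so its size rested on which of these 2 libraries was kept. Both depleted livers lay above both Aire+/+ livers for Tff3, while Psca was at 0 in all 4. Cd8a in the depleted livers was 0 and 0.187 RPKM, against 8.76 and 3.75 in TG Aire-/-.

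Related epithelial genes did not all follow. Muc13, an epithelial membrane mucin, was 0.0471 and 0.0166 RPKM in Aire+/+, 3.06 and 3.01 in TG Aire-/- and 0.00776 and 0.293 in the depleted livers. Like Psca it passed the filter only through the TG Aire-/- livers, so no test is given. Tff1 fell, from 3.38 and 3.11 RPKM in Aire+/+ to 1.57 and 0.355 in TG Aire-/- (log2 −1.19, SE 0.3429, limma adjusted p = 0.04021), the opposite direction to Tff3. Of 15 tested Ly6/uPAR genes 9 rose, beside 27.7% of all genes, among them Ly6a, Ly6c2, Plaur and Gpihbp1, which are also known from blood or endothelial cells. Of 12 biliary epithelium genes, a list added after the values were seen, 3 rose, namely Krt7 (1.17), Krt19 (2.17) and Ggt1 (0.72), a share no higher than the 27.7% of all genes. Their list summed to 31.7 and 45.3 RPKM in Aire+/+, 60.8 and 122 in TG Aire-/- and 23.4 and 116 in depleted livers, and its part in the Tff3 and Psca values was not tested. Of 7 tested intestinal genes 3 rose (Vil1, Cdh17 and Guca2b), beside the same 27.7%, while the intestinal regulators Cdx1 and Cdx2 were listed at 0 in all 6 livers.

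**Figure D4:**
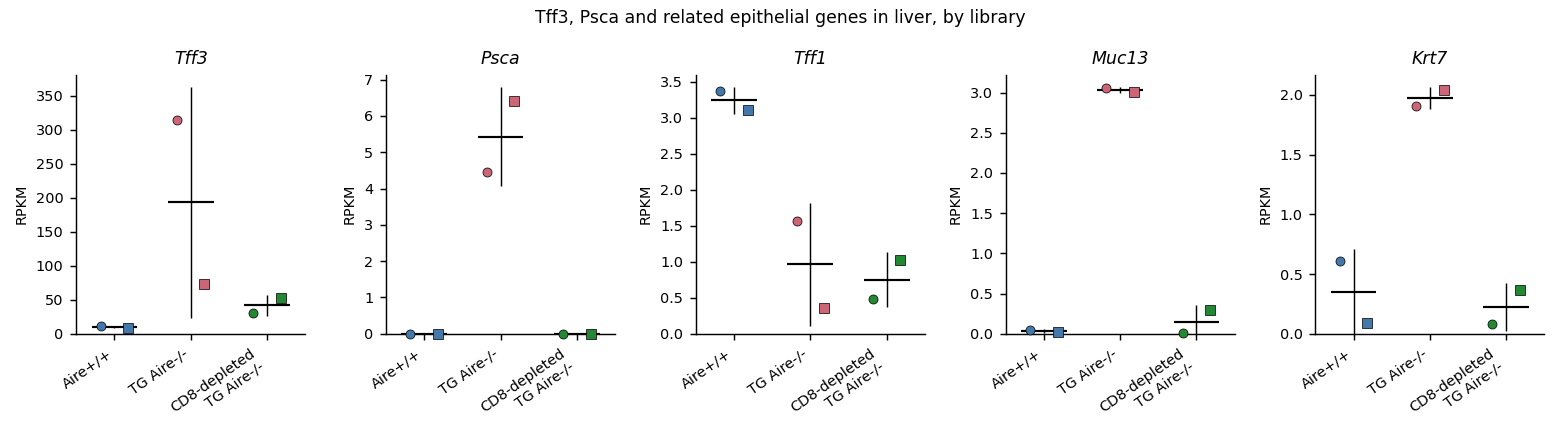
RPKM (linear axis from 0, a separate scale per panel) of Tff3, Psca and 3 related epithelial genes in 6 liver libraries by group, with circles and squares for replicates 1 and 2. Lines are means and 1 SD (n = 2, drawn down to 0 at most). Psca is at 0 outside TG Aire-/-, Tff3 in the depleted livers (31.2 and 52.7) lies between the other groups, and Tff1 is highest in Aire+/+.

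The hormones and lectins were near 0 in liver. Gip, Grp, Iapp, Pgc and Lypd2 were listed at 0 in all 6 libraries. Pyy was 0.249 RPKM in TG Aire-/- replicate 2 and 0 elsewhere, against a floor of 0.234. Reg3b at 0.0641 and Reg3g at 0.0627 RPKM appeared only in CD8-depleted replicate 2, under their floors.

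In liver CD8+ T cells, with 1 library per group and no test, the Tff3 level was 0.391 RPKM for Aire-/-, 0.584 for TG Aire+/- and 0.255 for TG Aire-/-. Reg3b was 0.119, 0.301 and 0.269 RPKM in the same order, and Reg3g 0, 0.0584 and 0.126. Psca (0.213) and Iapp (0.0677) were above 0 only in TG Aire-/-, and Pgc was 0.159, 0.0329 and 0. Pyy, Gip, Grp and Lypd2 were at 0 in all 3 libraries. No gene of the 10 reached 1 RPKM in these cells.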

How the data were processed

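The authors deposited RPKM values in 3 tables (thymus, liver of batch 2 and liver CD8+ T cells), covering 18 of 22 samples; the 4 livers whose titles carry no batch were not analysed here. The submitters' processing notes name STAR 2.5.2b and mm10. How reads were counted, on which annotation and with or without strand, is not given in the sources used here, and the labels name Illumina or BGI library protocols without saying which sample had which. Groups come from the titles and genotype labels.

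The genes and all lists were chosen with earlier results of these data known. Tests in thymus and liver used limma 3.58.1 under R 4.3.3 (lmFit, eBayes with trend, two-sided) on log2(RPKM + 1), so fold changes of low genes are understated. All 3 groups of a tissue entered 1 fit, and p-values were adjusted (Benjamini-Hochberg, threshold 0.05) over all genes with at least 0.1 RPKM in 3 thymus or 2 liver libraries. The fit was tested on simulated data with changes placed only in genes whose mean log2(RPKM + 1) was above 1. That test does not cover genes at lower levels. Depth was inferred from value steps, of which 48.6% to 59.2% were whole within 0.1 read, too few for a count test. Floors are 3 reads over the merged exons of GENCODE vM21 at the shallowest library.

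Named genes are the 10 genes, the checks Aire, Tgfbr2 and Cd8a, up to 4 called genes per list and contrast or the highest gene of a list with none, and the 10 genes most like the mean of the 10. Others are named for a stated value. Same-numbered libraries correlated from −0.16 to 0.73 in thymus and −0.14 to 0.26 in liver. Differently numbered ones ran from −0.73 to 0.52 and from −0.26 to 0.14. In thymus the median was −0.03 for both kinds, so numbers were not taken to pair samples. Aire-/- and TG Aire+/- thymus stood at 0.65 for replicates 1, −0.16 for replicates 2 and 0.73 for replicates 3. Whether these groups share a replicate factor was not tested. Alternatives were other pseudocounts, filters and scalings, a replicate block and leaving out each library.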

Additional observations from a re-analysis of the deposited data

How the results depend on the processing

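All 10 genes kept every TG Aire+/- value above both groups without Aire as TPM and when any 1 library was left out. With median-of-ratios scaling 9 did (all but Iapp), and 8 did per sum of the 6 medullary genes (all but Iapp and Reg3g). Shares over all genes were computed only in RPKM as deposited, so nothing is read from these counts. The median log2 difference was 2.09 as TPM, 2.68 with a pseudocount of 0.1, 1.83 with 0.5, and 1.32 to 1.47 leaving out a library. In TG Aire-/- against Aire-/- thymus no alternative called any of the 10. The estimate of Iapp (0.14) turned to −0.28 with a pseudocount of 0.1 and to −0.36 without TG Aire-/- replicate 1; the cause was not tested. Calls among list genes, 2 for TG Aire-/- against TG Aire+/- and 1 for TG Aire+/- against Aire-/-, were 4 and 3 with no filter, and 0 and 0 with a filter of 1 RPKM, which tests fewer genes. They were 0 and 0 with median-of-ratios scaling and 0 and 0 with the replicate block, and a pseudocount of 0.5 gave 2 in the second. Leaving out a library gave 0 to 10, 0 to 4 and, against Aire-/-, 0 to 3, with each highest count from the fit without TG Aire-/- replicate 1. The replicate block left 0 of all thymus genes called in each contrast, beside 22, 9 and 2. The block changed no call of the 10 genes in TG Aire-/- against Aire-/-, the only thymus contrast read for them, where none was called. In liver it changed no call of Tff3, and all-gene calls moved by under 1.5 times. Psca in liver, at 0 in 4 libraries, had a difference set by the pseudocount, and its calls are not counted. Over the alternatives the log2 difference of Tff3 ranged from 2.76 to 4.84 in TG Aire-/- against Aire+/+ livers. Between CD8-depleted and other TG Aire-/- livers it ranged from −2.92 to −0.84. Tff3 passed the threshold in the latter contrast with a filter of 1 RPKM and as TPM (limma adjusted p = 0.04842 and 0.04507). With the depths here, levels under the 3-read floors could not be compared.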
